A study of Mus musculus with 50 samples.

Results

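The genes described here are those that build, load and control the major histocompatibility complex (MHC) molecules of the mouse. They were taken as every protein-coding row of the gene count table whose symbol starts with H2-, together with B2m, Tap1, Tap2, Tapbp, Tapbpl, Psmb8, Psmb9, Psmb10, Psme1, Psme2, Erap1, Nlrc5, Ciita and Cd74. The rule gave 48 genes of the 55416 in the table. They fall into 24 class I heavy chains, 12 genes that supply, load or control class I, 11 class II genes and H2-Ke6, which lies in the MHC but encodes an enzyme of fatty acid and steroid metabolism (also named Hsd17b8). The cells were RAW264.7, a mouse macrophage line raised from a BALB/c tumour induced by Abelson leukaemia virus, edited with CRISPR guides and profiled by RNA-seq of poly-A selected RNA. Batch b1 held control cells carrying an empty-vector guide at rest (3 libraries), after 10 µg/mL of the mouse STING agonist DMXAA for 2 h (5), and after the SGK inhibitor Sanofi-14h at 500 nM for 2 h followed by DMXAA (5). It also held cells labelled SGK3 KO at rest (3) and after DMXAA (5), and cells labelled SGK1/SGK3 double KO after DMXAA (5). Batch b2 held control cells at rest (3) and after DMXAA (4), cells labelled SGK1 KO at rest (3) and after DMXAA (4), and double KO cells at rest (3) and after DMXAA (3). Batch b3 held 4 libraries, all marked as reruns in their titles, and entered no test. Nothing in the sources used here says whether an edited line was 1 clone, or whether the libraries of a group came from separate cultures, so every p-value below reflects library-to-library spread, which may be technical. The control DMXAA libraries carry no vehicle in their own label.

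Class I molecules display peptides cut inside the cell. The proteasome, in its immune form with the Psmb8, Psmb9 and Psmb10 subunits and the Psme1/Psme2 cap, cuts proteins, the Tap1/Tap2 transporter carries the pieces into the endoplasmic reticulum, Erap1 trims them, and tapasin (Tapbp) and its relative Tapbpl load them on a heavy chain paired with beta-2 microglobulin (B2m). Nlrc5 switches on class I promoters, and interferons raise most of the set. Class II molecules display peptides from the endosome. Their chains are escorted by the invariant chain (Cd74), loaded with the help of H2-DM, which H2-O restrains, and transcribed under Ciita, which in resting macrophages is low until interferon gamma is present. STING senses cyclic dinucleotides and leads to type I interferon, and SGK1 and SGK3 are serine/threonine kinases acting downstream of PI3-kinase.

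Total expected counts were 57859509 to 101068327 per library in b1, 63461414 to 112007140 in b2 and 76295599 to 86754670 in b3, and 16947 genes in b1 and 16622 in b2 passed the filter on low counts and were tested. Of the targeted genes, Sgk1 after DMXAA stood at a mean of 51.3 CPM, the library-scaled count, in b1 control cells and 4.88 in double KO cells. In b2 it stood at 34.1 in control cells, 4.17 in SGK1 KO cells and 2.42 in double KO cells. In b1 Sgk1 was also lower in groups not labelled as SGK1 KO, at 22.1 CPM in SGK3 KO cells and 11.7 with the inhibitor. It was 1.62 in resting control cells, so low Sgk1 counts alone do not check the edit either. Sgk3 stood at 102 CPM in b1 control cells after DMXAA, 107 in SGK3 KO cells and 120 in double KO cells, so its counts do not check the edit, which can leave the RNA in place. Of 10 macrophage markers 9 were above 1 CPM, and Mertk was at most 0.0579. Their summed level was 7020 to 9174 CPM in b1, 10980 to 13140 in b2 control cells and 7381 to 9892 in b2 knockout cells. Summed dendritic cell markers reached at most 6.29 CPM. Flt3 and Ccr7 were at 0, while Siglech reached 4.56, Zbtb46 1.47 and Itgax 1.29 CPM. B cell markers reached 1.72 CPM in sum, with Ms4a1 at 0 and Cd79a up to 1.68. T cell markers reached 4.97 CPM in sum, with Cd3g and Trac at 0 and Lck up to 4.84. The 1 B cell marker tested in b1 rose with DMXAA in control cells (log2 fold change 5.075). In b2 the libraries also differed in how counts moved with gene length. The slope, in log2 units per doubling of length against the batch mean, was above 0.1 in SGK1 KO libraries E, F and P and in double KO library X, and between -0.20 and 0.02 in the 7 control libraries. The part of these marker and length differences in the b2 results was not tested beyond the values given with those results.

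The upstream regions of the class I heavy chains are shown first, because the heavy chains are near copies of each other and because the factors known to drive them bind short shared elements there. RefSeq sequences on GRCm38.p6, covering 250 bases before to 50 after each gene's start, were found for 40 of the 48 genes, and none was found for H2-T24, H2-Q1, Tap2, Tapbpl, Nlrc5, Cd74, H2-Ab1 and Ciita. H2-M2, which was at or near 0, also holds the first motif below and is not shown. The stretches below are each 39 bases long and printed 5′ to 3′ on the gene's strand. They are those of the 7 heavy chains with a count in every library whose window holds GAANNGAAA on either strand. GAANNGAAA is a short form of the interferon response element. Capitals mark that element, here on the other strand and so read in reverse complement. Upstream of it they mark the nearly palindromic NF-kappa-B site known as enhancer A, whose 11 letters are the first capitals of the H2-K1 line.
H2-K1 (chr17:34000423-34000461, minus strand): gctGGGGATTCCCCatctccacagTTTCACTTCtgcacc
H2-D1 (chr17:35262920-35262958, plus strand): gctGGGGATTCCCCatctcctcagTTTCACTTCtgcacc
H2-Q4 (chr17:35379440-35379478, plus strand): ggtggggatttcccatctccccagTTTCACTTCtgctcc
H2-Q6 (chr17:35424674-35424712, plus strand): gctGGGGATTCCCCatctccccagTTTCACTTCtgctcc
H2-Q7 (chr17:35439018-35439056, plus strand): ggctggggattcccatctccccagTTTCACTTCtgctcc
H2-Q10 (chr17:35469910-35469948, plus strand): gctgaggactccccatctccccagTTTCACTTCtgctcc
H2-M3 (chr17:37270109-37270147, plus strand): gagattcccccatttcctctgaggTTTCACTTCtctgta
The element read TTTCACTTC in all 7. The enhancer A letters were present in H2-K1, H2-D1 and H2-Q6, and the other 4 carried other letters at that place. Across 32841 RefSeq promoter windows of this length GAANNGAAA occurred in 7.51% and the enhancer A letters in 0.0304%, or 10 windows. Among the 20 class I genes tested in b1 that have a window, GAANNGAAA occurred in 8, these 7 and Psme1, and the enhancer A letters in 3. The heavy chains are related by descent, so the 7 stretches are not independent of each other.

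Whole windows follow for B2m, H2-T23, Tap1, Tapbp and Psmb10, the light chain, a heavy chain and 3 supply genes that respond differently below. Tapbp and Psmb10 had the largest and the smallest response to DMXAA in b1 control cells among the supply genes and the 2 classical heavy chains, and the other 3 were chosen after their values were seen. Capitals mark matches, on either strand, to a longer interferon element (GAAA and GAAA with any 2 bases between them, added after the windows were seen), to CCAAT (the Y box bound by NF-Y, ATTGG on the other strand) and to the motifs above. The longer element is spaced differently and does not contain GAANNGAAA, so a window can hold either without the other. TGACGTCA, the cAMP response element, was also searched.
B2m (chr2:122147437-122147736, plus strand): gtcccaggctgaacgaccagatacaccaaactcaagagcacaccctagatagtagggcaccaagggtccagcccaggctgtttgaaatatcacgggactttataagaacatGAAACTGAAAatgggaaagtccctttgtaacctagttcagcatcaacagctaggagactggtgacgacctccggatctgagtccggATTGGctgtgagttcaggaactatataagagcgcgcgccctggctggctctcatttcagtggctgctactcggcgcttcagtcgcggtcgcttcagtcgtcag
H2-T23 (chr17:36032652-36032951, minus strand): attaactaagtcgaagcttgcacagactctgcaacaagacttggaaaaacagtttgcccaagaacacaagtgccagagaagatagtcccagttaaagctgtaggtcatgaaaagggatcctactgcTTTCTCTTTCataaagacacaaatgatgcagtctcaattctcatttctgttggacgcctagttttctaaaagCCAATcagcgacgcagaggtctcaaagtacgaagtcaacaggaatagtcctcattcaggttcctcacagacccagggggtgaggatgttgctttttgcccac
Tap1 (chr17:34187306-34187605, plus strand): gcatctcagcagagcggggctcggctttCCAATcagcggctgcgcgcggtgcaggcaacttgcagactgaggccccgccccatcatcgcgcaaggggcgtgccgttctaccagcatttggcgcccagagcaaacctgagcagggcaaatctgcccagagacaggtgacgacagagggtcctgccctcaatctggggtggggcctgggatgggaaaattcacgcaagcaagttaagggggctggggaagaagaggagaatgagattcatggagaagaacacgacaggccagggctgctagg
Tapbp (chr17:33919228-33919527, plus strand): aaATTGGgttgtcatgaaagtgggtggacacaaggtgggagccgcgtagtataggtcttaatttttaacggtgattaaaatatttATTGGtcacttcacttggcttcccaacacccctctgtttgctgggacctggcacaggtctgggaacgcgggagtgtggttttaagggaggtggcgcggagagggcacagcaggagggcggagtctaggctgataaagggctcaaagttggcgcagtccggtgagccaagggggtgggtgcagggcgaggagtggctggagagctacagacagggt
Psmb10 (chr8:105938343-105938642, minus strand): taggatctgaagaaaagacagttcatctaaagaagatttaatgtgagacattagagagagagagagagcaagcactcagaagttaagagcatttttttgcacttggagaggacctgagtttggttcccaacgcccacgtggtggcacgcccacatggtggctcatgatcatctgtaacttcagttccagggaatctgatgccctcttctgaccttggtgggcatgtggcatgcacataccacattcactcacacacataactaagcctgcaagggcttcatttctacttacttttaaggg
B2m and H2-T23 held the longer interferon element and a Y box, Tap1 and Tapbp a Y box, and the Psmb10 window none of the motifs. The longer interferon element occurred in 5 of the 20 class I windows, those of B2m, H2-T22, H2-T23, Erap1 and Psme1, against 3.44% of all windows. CCAAT occurred in 13 of 20 against 37.4%, and TGACGTCA in 0 of 20 against 1.79%. Tap1 and Psmb9 are transcribed away from each other and their windows share 275 bases. A window without a match says only that these letters are not in it.

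Class I was expressed at a high level and class II chains were close to absent. Of the 48 genes 10 had no count in any library of b1 or b2: H2-M1, H2-M5, H2-M9, H2-M10.1, H2-M10.3, H2-M10.4, H2-M10.5, H2-M10.6, H2-M11 and H2-Eb2. A count in all 46 libraries was found for 24 class I genes, 12 heavy chains (H2-K1, H2-D1, H2-Q1, H2-Q2, H2-Q4, H2-Q6, H2-Q7, H2-Q10, H2-T22, H2-T23, H2-T24 and H2-M3) and the 12 supply genes, and these 24 are the basis of the medians below. H2-M10.2 reached a count of 9, H2-M2 of 4 and H2-T3 of 196, the last in 5 libraries of the 46, with 0 in the rest. The filter on low counts passed 31 of the 48 genes in b1 and 30 in b2.

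In TPM, the transcript share that takes out gene length, B2m led in resting control cells of b1 at 1471 ± 65.6 (SD, n = 3). The classical heavy chains H2-D1 and H2-K1, which present peptides to CD8 T cells, followed at 501 ± 33.1 and 414 ± 43.7. Cd74, the class II invariant chain, stood at 313 ± 17.2. Next came the proteasome cap genes Psme2 (276) and Psme1 (187), tapasin (193) and Psmb8 (127). The non-classical H2-T23, which encodes Qa-1, a ligand of the CD94-NKG2A receptor of natural killer cells, stood at 125 ± 42.8 and could not be separated from Psmb8 by its spread. H2-Q4, H2-Q6 and H2-T24 lay close together at 76.4, 73.5 and 72.7 ± 31.1. The transporter subunits were far lower, Tap1 at 23.4 and Tap2 at 17.0, and Nlrc5 stood at 7.77. RAW264.7 cells carry the H-2d haplotype and the reference is of H-2b, and the heavy chains are near copies. Reads can therefore be shared between heavy chains or lost. How the counting treated such reads is not given in the sources used here, so the split of counts among H2-K, D, Q and T genes is uncertain. Sums over them depend less on that split but can still miss lost reads, and the loss was not tested.

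**Figure D1:**
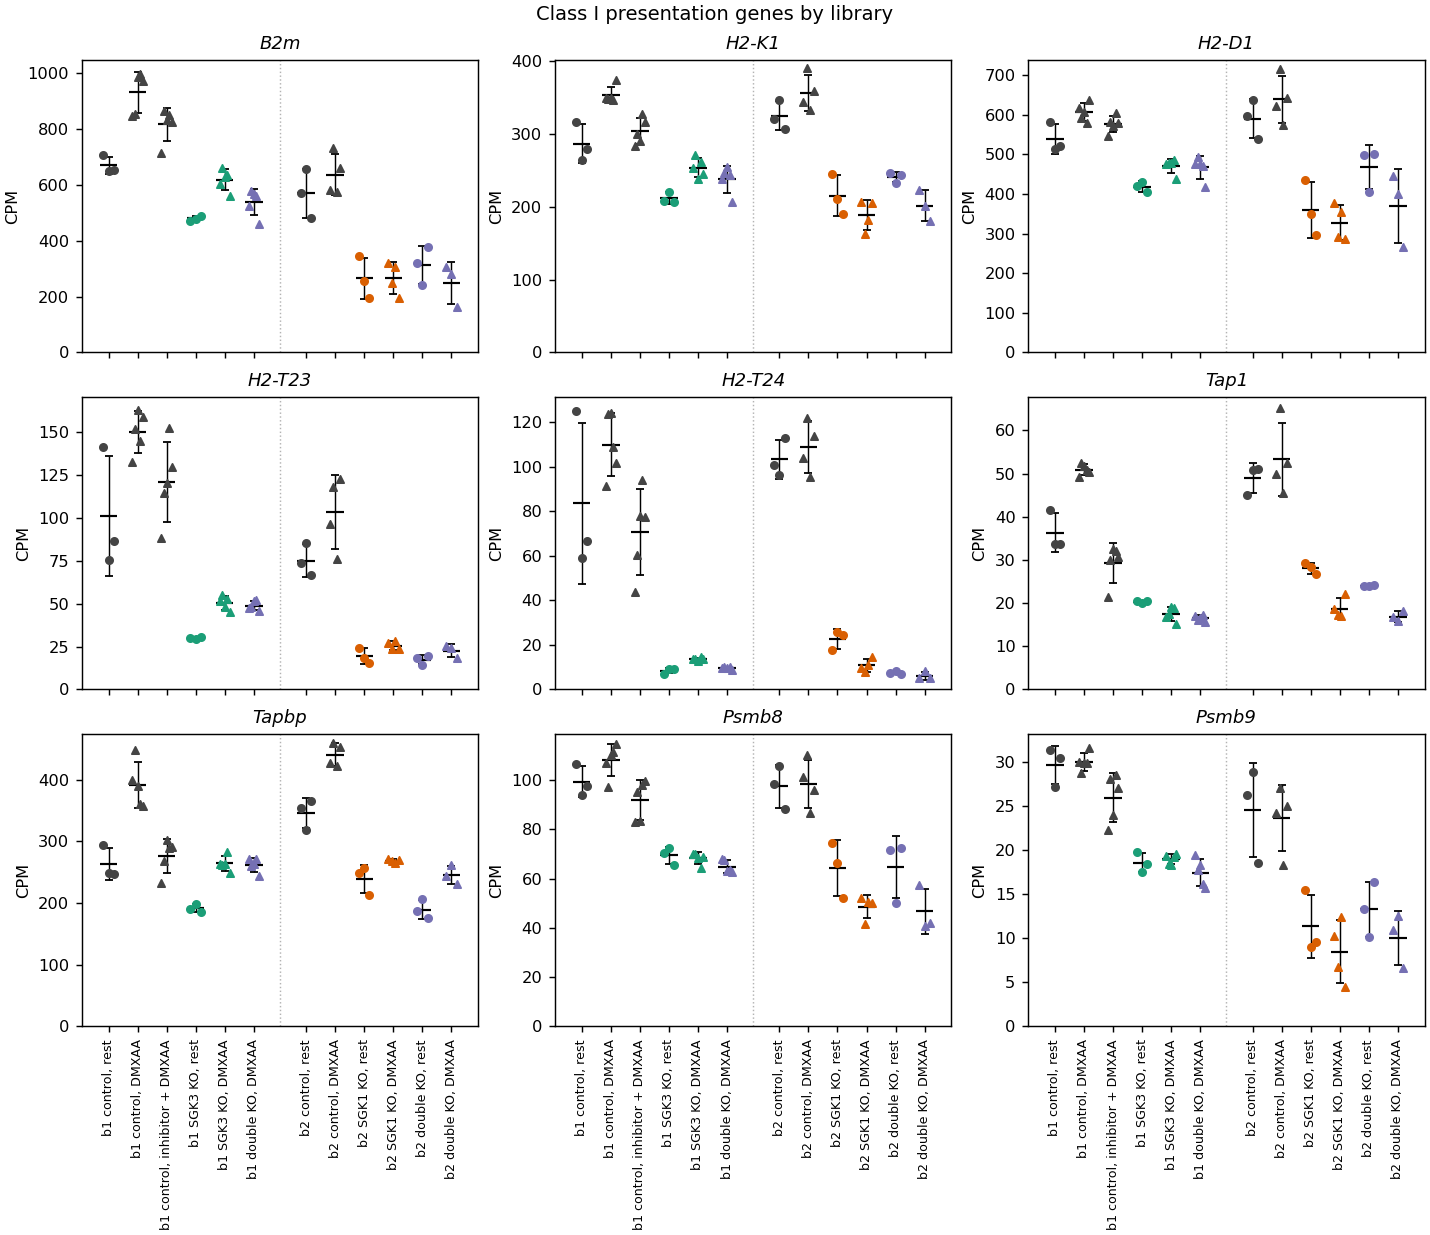
CPM of 9 class I genes in every library, batch b1 left and b2 right of the dotted line, with circles for rest, triangles for DMXAA and bars for the group mean ± SD. H2-T24 was 59.3 to 125 CPM in the control libraries of both batches that received no inhibitor and 4.95 to 25.9 in the edited ones.

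DMXAA raised class I modestly in control cells. In b1 12 of 31 tested genes rose and 1 fell, where 17.9% of all tested genes rose and 17.4% fell, so the share of genes raised, but not of genes lowered, was above that of the table. Over the 24 class I genes the median log2 fold change was 0.28, against 0.002 over all genes, with the lowest at -0.04 (Psmb10) and the highest at 0.57 (Tapbp). B2m stood at 705, 650 and 652 CPM at rest and at 848, 854, 985, 996 and 970 CPM after DMXAA. The groups did not overlap, and the log2 fold change was 0.47 ± 0.07 (SE; edgeR quasi-likelihood test, Benjamini-Hochberg adjusted p = 1.15e-06). Tapbp rose from 293, 249 and 247 CPM to 357 to 449 CPM (0.57 ± 0.07, adjusted p = 1.18e-07). Tap1, a subunit of the peptide transporter, rose from 41.6, 33.8 and 33.7 CPM to 49.2, 52.5, 51.8, 50.9 and 50.3 CPM (0.49 ± 0.09, adjusted p = 7.08e-05).

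Among the heavy chains the highest value was that of H2-T23, which stood at 141, 75.3 and 86.8 CPM at rest and 133 to 163 CPM after DMXAA (0.57 ± 0.16, adjusted p = 0.00636). The median was 0.30 over the 12 heavy chains and 0.19 over the 12 supply genes. H2-K1 rose from 315, 264 and 279 CPM to 348, 347, 349, 347 and 373 CPM, a log2 fold change of 0.30 ± 0.06 (adjusted p = 0.000167). H2-Q4 rose by 0.36 ± 0.06 (adjusted p = 1.7e-05) and H2-Q2 by 0.34. H2-D1 rose by 0.17 ± 0.05 (adjusted p = 0.00834), a call that ended without resting library 2 (0.14) or 3 (0.15). The calls of H2-D1 (0.17) and Psme1 (0.21) also ended with both batches fitted together. In all 8 of the 12 heavy chains and 4 of the 12 supply genes rose, the latter B2m, Tapbp, Tap1 and Psme1. The immunoproteasome subunits Psmb8 (0.12), Psmb9 (0.02) and Psmb10 (-0.04), the cap subunit Psme2 (0.08), Tap2 (0.28), Erap1 (0.17) and Nlrc5 (0.22) did not pass the test at 2 h. Resting control library 1 was the highest of its group in H2-T24 (125 CPM against 59.3 and 66.5) and H2-T23 (141 against 75.3 and 86.8), and H2-T24 did not pass (0.39 ± 0.21). The gene that fell was H2-Ke6.

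In b2 the response was smaller. Of 30 tested genes 1 rose, Tapbp, and none fell, where 2.52% of all tested genes rose and 1.46% fell. At an unadjusted p under 0.05 edgeR called 2 higher and 0 lower, and DESeq2 called 1 higher and 0 lower after adjustment. Tapbp stood at 354, 318 and 365 CPM at rest and at 427, 459, 422 and 453 CPM after DMXAA, a log2 fold change of 0.35 ± 0.08 (adjusted p = 0.0103). The groups did not overlap, but the call ended without resting library B (0.30). B2m stood at 569, 658 and 481 CPM at rest and at 582, 731, 573 and 658 CPM after DMXAA, and the groups overlapped. The median over the 24 class I genes was 0.11, against -0.004 over all genes. Irf1, an interferon-responsive activator of class I promoters, went from 19.6 to 124 CPM with DMXAA in b1 control cells and from 16.03 to 25.4 CPM in b2 control cells, where it did not pass. The difference in response between the batches was not tested.

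Within SGK3 KO cells of b1 DMXAA raised 11 of 31 genes and lowered 2, Psmb10 and H2-Ke6, where 16.4% of all tested genes rose and 13.7% fell. The median over the 24 class I genes was 0.17, against 0.013 over all genes. H2-T23 had the highest value among them, from 30.0, 29.7 and 30.5 CPM at rest to 51.3, 55.0, 48.1, 53.0 and 45.1 CPM after DMXAA, a log2 fold change of 0.75. Tap1 had the lowest. It stood at 20.4, 20.01 and 20.6 CPM at rest and at 16.9, 17.5, 19.1, 19.0 and 15.3 CPM after DMXAA. The change in Tap1 with DMXAA was thus 0.49 in control cells and -0.21 in SGK3 KO cells, and the difference between them, tested as an interaction, was -0.70 ± 0.13 (adjusted p = 0.00375). It was the only one of the 31 tested genes called for that difference, where 0.59% of all tested genes were called higher and 0.448% lower. At an unadjusted p under 0.05 edgeR called 0 higher and 2 lower, and DESeq2 called 0 higher and 1 lower after adjustment. The H2-D1 and Psme1 calls within SGK3 KO cells ended without resting SGK3 KO library 3, after which 8 genes were called, and the H2-T24 call ended without any 1 of the 3 resting SGK3 KO libraries or DMXAA library 4 and with the replicate number as a block (0.63).

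**Figure D2:**
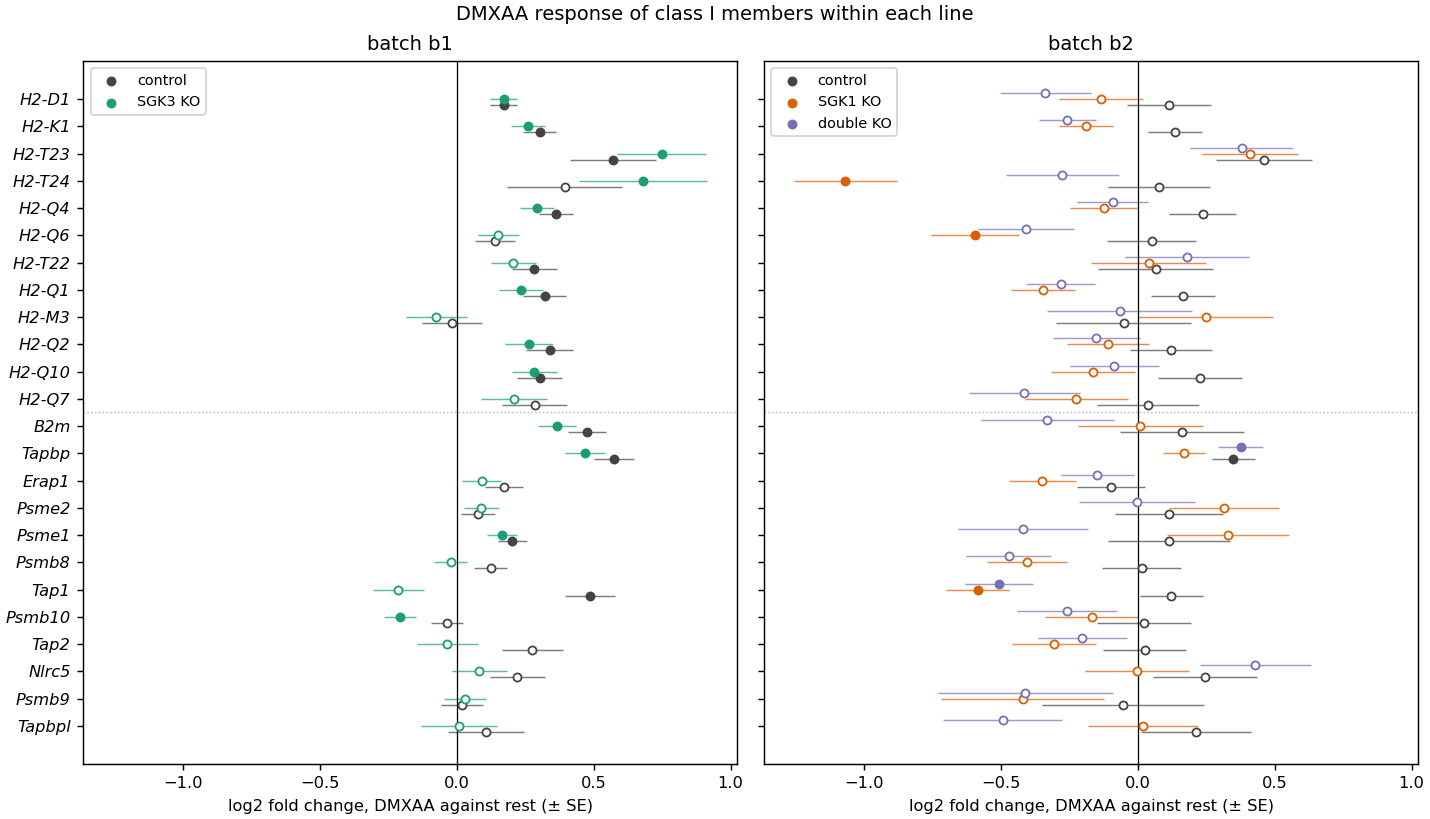
Log2 fold change of DMXAA against rest (± SE) for class I genes within each line, b1 and b2 in separate panels. Tap1 lies at 0.49 in b1 control cells and at -0.21 in SGK3 KO cells.

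Class I was lower in SGK3 KO cells before any stimulus. At rest 22 of 31 genes were lower than in control cells and none higher, where 5.84% of all tested genes were higher and 4.6% lower. At an unadjusted p under 0.05 edgeR called 1 higher and 23 lower, and DESeq2 called 0 higher and 22 lower after adjustment. All 12 expressed heavy chains and 9 of the 12 supply genes were among the 22, and the median over the 24 was -0.49, against -0.007 over all genes. H2-T24 had the largest difference. It stood at 125, 59.3 and 66.5 CPM in resting control cells and at 7.03, 9.30 and 9.18 CPM in resting SGK3 KO cells, a 9.84-fold difference (log2 fold change -3.30 ± 0.26, adjusted p = 8.41e-09). A neighbouring heavy chain moved the same way. On chromosome 17 of GRCm39, H2-T24 lies at 36316587 to 36331452 and H2-T23 at 36340665 to 36343747, both on the minus strand, and H2-T23 was lower by a log2 fold change of -1.75 ± 0.18 (adjusted p = 3.08e-07), from 141, 75.3 and 86.8 to 30.0, 29.7 and 30.5 CPM. H2-T22, a ligand of a subset of gamma delta T cells, differed by -0.81 ± 0.09 and H2-Q6 by -0.71 ± 0.08.

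Of the supply genes, Tap1 had the largest difference and B2m was lower in every library. B2m stood at 471, 478 and 489 CPM in resting SGK3 KO cells, all below the lowest control value of 650 (-0.48 ± 0.08, adjusted p = 2.11e-05). Tap1 differed by -0.84 ± 0.10 (adjusted p = 3.08e-07), Psmb9 by -0.67 ± 0.09 (adjusted p = 6.01e-07) and Nlrc5 by -0.59 ± 0.11 (adjusted p = 0.000353). H2-K1 stood at 208, 221 and 206 CPM, below the control values of 264 to 315. Tap2 (-0.24), Erap1 (-0.17) and Tapbpl (-0.15) did not pass, nor did H2-Ke6, which had the opposite sign (0.59 ± 0.22). With both batches fitted together the calls of H2-D1 (-0.36), B2m (-0.48), Psmb9 (-0.67), Psmb10 (-0.33), Psme1 (-0.54) and Psme2 (-0.44) ended, with folds close to those reported. Summed over the heavy chains, TPM was 1361 ± 155 in resting control cells and 892 ± 11.47 in resting SGK3 KO cells (SD, n = 3 each). Summed over the H2-T genes alone it was 224 and 58.4. In bulk RNA, fewer cells expressing a gene and less RNA of it per cell cannot be told apart.

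After DMXAA more of the genes passed. Of 31 genes 25 were lower in SGK3 KO cells and none higher, where 13.3% of all tested genes were higher and 9.59% lower, and by unadjusted p the counts were 0 higher and 26 lower and by DESeq2 0 and 25. Tapbpl was the one class I gene of the 24 that did not pass, and the median over the 24 was -0.58, against 0.001 over all genes. H2-T24 stood at 91.5, 124, 124, 109 and 102 CPM in control cells and at 13.6, 13.5, 12.9, 14.5 and 13.8 CPM in SGK3 KO cells, an 8.06-fold difference (-3.01 ± 0.20, adjusted p = 1.3e-10). Tap1 stood at 49.2 to 52.5 CPM in control cells and 15.3 to 19.1 in SGK3 KO cells, a 2.91-fold difference (-1.54 ± 0.08, adjusted p = 6.56e-16). H2-T23 differed by -1.57 ± 0.14 (adjusted p = 1.04e-08). The differences in H2-T24 and H2-T23 were -3.30 and -1.75 at rest, and among all 31 genes the change between rest and DMXAA was called for Tap1 alone. No library of these genes in SGK3 KO cells reached the control range.

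The immunoproteasome subunits, none of which had passed with DMXAA in control cells, were lower too. Psmb8 stood at 107, 97.4, 110, 112 and 115 CPM in control cells and at 70.0, 70.0, 68.4, 64.2 and 68.9 CPM in SGK3 KO cells (-0.66 ± 0.05, adjusted p = 1.4e-11). Psmb9 stood at 28.8 to 31.6 CPM against 18.4 to 19.6 (-0.66 ± 0.07, adjusted p = 2.06e-09). Psmb10 differed by -0.50, Psme1 by -0.58 and Psme2 by -0.43. B2m differed by -0.59 ± 0.06, from 848 to 996 CPM in control cells to 561 to 659 in SGK3 KO cells. Of the classical heavy chains, H2-K1 differed by -0.48 ± 0.05 and H2-D1 by -0.37 ± 0.04. In H2-D1 the control libraries lay between 580 and 637 CPM and the SGK3 KO libraries between 439 and 485. Nlrc5 differed by -0.73 ± 0.09 and Erap1, the smallest called difference, by -0.25 ± 0.06.

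Double KO cells of b1, measured only after DMXAA and against the same control libraries, gave 25 genes lower and none higher, where 14.5% of all tested genes were higher and 11.9% lower. The unadjusted counts were 0 higher and 26 lower, and by DESeq2 0 and 26. H2-T24 stood at 9.76, 10.1, 9.51, 10.1 and 8.87 CPM, an 11.4-fold difference from control (-3.51 ± 0.20, adjusted p = 1.2e-11), Tap1 at 15.6 to 17.2 CPM (-1.62 ± 0.08, adjusted p = 1.14e-16) and H2-T23 at 45.5 to 52.0 CPM (-1.62 ± 0.14). H2-T22 differed by -1.15 ± 0.07, H2-Q6 by -0.93 and B2m by -0.79 ± 0.06. The median over the 24 class I genes was -0.63, against -0.005 over all genes. The difference between double KO and SGK3 KO cells was not tested.

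**Figure D3:**
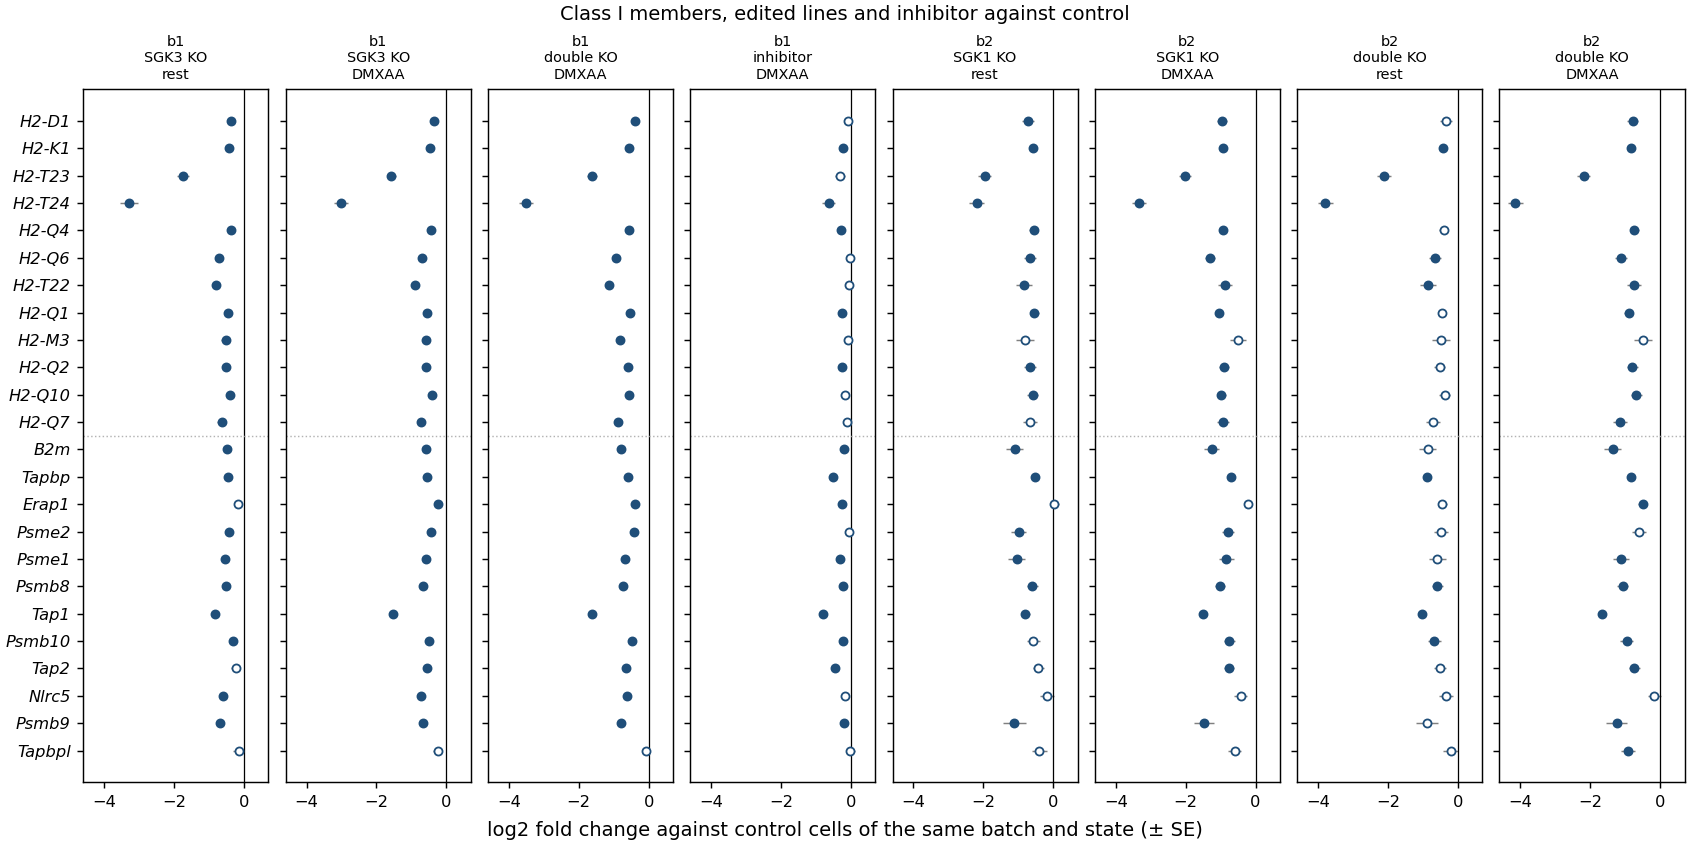
Log2 fold change against control (± SE) of the 24 class I genes with a count in every library, in 8 comparisons, heavy chains above the dotted line. Filled points passed adjusted p under 0.05, and H2-T24 lies farthest from 0 in each comparison of an edited line with control.

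Control cells given Sanofi-14h before DMXAA had lower levels of part of the same genes. Of 31 genes 16 were lower than after DMXAA alone and none higher, where 10.6% of all tested genes were higher and 10.1% lower, with unadjusted counts of 0 higher and 19 lower and DESeq2 counts of 0 and 18. These comparisons share the control DMXAA libraries with those of the edited lines. Of the 12 supply genes 9 were lower and of the 12 heavy chains 5, and the median over the 24 was -0.22, against 0 over all genes. Tap1 stood at 21.3, 30.1, 32.5, 32.1 and 30.6 CPM with the inhibitor, below all control DMXAA libraries (-0.80 ± 0.08, adjusted p = 6.35e-09). Tapbp stood at 233 to 303 CPM against 357 to 449 (-0.50 ± 0.06, adjusted p = 3.96e-07), and Tap2 differed by -0.45 ± 0.10 (adjusted p = 0.00096). The inhibitor values of Tap1 lay below those of resting control cells (33.7 to 41.6 CPM) and those of Tapbp around them (247 to 293 CPM). The macrophage markers moved in the same comparison, with 0 higher and 5 lower of 9 tested and a median log2 fold change of -0.14. Their summed level was 7394 to 8079 CPM with the inhibitor and 7750 to 8593 CPM without it, and their part in the class I difference was not tested.

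Among the heavy chains H2-T24 was 43.6, 60.5, 77.7, 94.3 and 77.3 CPM with the inhibitor, overlapping the control range of 91.5 to 124 (-0.64 ± 0.18, adjusted p = 0.0144). H2-K1 differed by -0.22 ± 0.05 (adjusted p = 0.00272). H2-D1 (-0.07), H2-T23 (-0.31 ± 0.13) and Psme2 (-0.05) did not pass. B2m stood at 714, 864, 832, 850 and 824 CPM (-0.19 ± 0.06, adjusted p = 0.0201), and its call ended without inhibitor library 1 (-0.14) or control DMXAA library 3 (-0.17) or 4 (-0.16). The call of Psmb9 (-0.21) ended without inhibitor library 1 (-0.16) or 3 (-0.18) or control DMXAA library 5 (-0.19). With both batches fitted together the calls of B2m (-0.19), Psmb8 (-0.24), Psmb9 (-0.21), Psmb10 (-0.22) and Psme1 (-0.30) ended, with folds close to those reported.

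In b2, SGK1 KO cells had lower class I as well. At rest 17 of 30 genes were lower than in control cells and none higher, where 3.28% of all tested genes were higher and 3.15% lower, with unadjusted counts of 0 higher and 22 lower and DESeq2 counts of 0 and 20. The median over the 24 was -0.66, against -0.017 over all genes. Of the macrophage markers 1 was higher and 2 lower of 9 tested, with a median of -0.44, and their part was not tested. H2-T24 stood at 101, 96.2 and 113 CPM in resting control cells and at 17.6, 25.9 and 24.3 CPM in resting SGK1 KO cells (-2.19 ± 0.21, adjusted p = 1.3e-06). H2-T23 stood at 73.6, 85.2 and 66.5 CPM against 24.4, 18.1 and 15.3 CPM (-1.96 ± 0.19, adjusted p = 1.7e-06). B2m, a short transcript, stood at 569, 658 and 481 CPM against 344, 255 and 196 CPM (-1.11 ± 0.25, adjusted p = 0.0139). The calls of B2m, H2-D1, Psmb8, Psmb9, Psme1 and Psme2 ended without control library B or SGK1 KO library E or F. The count was 8 without control library A, 5 without B and 6 without E or without F, and it was 4 without the steep-length libraries, which leaves library D alone, assumed to vary like the others. The length slope was -0.20 in B, 0.23 in E and 0.34 in F.

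After DMXAA the count in SGK1 KO cells was 19 to 20 without any 1 library and 21 without the steep-length ones. With all libraries, of 30 genes 20 were lower and none higher, where 4.66% of all tested genes were higher and 4.07% lower, with unadjusted counts of 0 higher and 24 lower and DESeq2 counts of 0 and 21. H2-T24 stood at 104, 122, 95.6 and 114 CPM in control cells and at 9.45, 7.82, 10.99 and 14.8 CPM in SGK1 KO cells, a 10.1-fold difference (-3.34 ± 0.19, adjusted p = 1.96e-10). Tap1 stood at 50.01, 65.2, 45.5 and 52.5 CPM against 18.6, 17.3, 16.9 and 22.1 CPM (-1.51 ± 0.11, adjusted p = 6.45e-09). Psmb8 differed by -1.02 ± 0.14, Psmb9 by -1.48 ± 0.28, B2m by -1.26 ± 0.21 and Tapbp by -0.71 ± 0.07. H2-K1 stood at 333 to 390 CPM in control cells and 162 to 206 in SGK1 KO cells (-0.92 ± 0.09), and H2-D1 differed by -0.96 ± 0.14. Erap1 (-0.22), Nlrc5 (-0.43), Tapbpl (-0.60) and H2-M3 (-0.51) did not pass, and the call of Psme1 ended without SGK1 KO library P (-0.78) or R (-0.71). The median over the 24 was -0.92, against -0.003 over all genes, and the summed heavy chains were 1630 ± 96.2 TPM in control cells and 808 ± 43.8 TPM in SGK1 KO cells (SD, n = 4 each).

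Double KO cells of b2 share the control libraries of this batch with the SGK1 KO cells. At rest 9 of 30 genes were lower than in control cells and none higher, where 1.16% of all tested genes were higher and 1.87% lower, with unadjusted counts of 0 higher and 21 lower and DESeq2 counts of 0 and 13. Over the 24 the median was -0.55, against 0 over all genes. H2-T24 stood at 7.53, 8.17 and 6.73 CPM against 101, 96.2 and 113 CPM, a 13.8-fold difference (-3.79 ± 0.22, adjusted p = 6.11e-10). H2-T23 (-2.11 ± 0.19, adjusted p = 3.4e-07), Tap1 (-1.03 ± 0.12, adjusted p = 1.62e-05) and Tapbp (-0.87 ± 0.08, adjusted p = 5.88e-07) also kept their call without any 1 library. The calls of H2-T22, H2-K1, Psmb10 and Psmb8 ended when any 1 of several libraries was left out, and the count was 4 without control library A or B or double KO library G, H or I and 5 without C. Without the steep-length libraries, none of which is in these groups, it was 16. Of the macrophage markers 0 were higher and 4 lower of 9 tested in this comparison, with a median log2 fold change of -0.31, and their part in the class I difference was not tested.

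After DMXAA 21 of 30 genes were lower in double KO cells and none higher, where 6.43% of all tested genes were higher and 6.41% lower, with unadjusted counts of 1 higher and 26 lower and DESeq2 counts of 1 and 24. H2-T24 stood at 5.36, 8.22 and 4.95 CPM against 95.6 to 122 CPM, a 17.6-fold difference (-4.14 ± 0.22, adjusted p = 8.35e-11). H2-T23 differed by -2.19 ± 0.19, Tap1 by -1.66 ± 0.12 (adjusted p = 6.56e-09), B2m by -1.36 ± 0.24 (adjusted p = 0.000582), Psmb8 by -1.08 and Tapbp by -0.84 ± 0.08. B2m was 304, 280 and 161 CPM in double KO libraries T, U and X, lowest in the steep-length library X. The call of Psmb9 ended without X (-1.01), and that of Erap1 without T (-0.41) or U (-0.43) and in limma on log2 TPM (-0.43). The median over the 24 was -0.87, against -0.009 over all genes. The macrophage markers moved with these groups, with 0 higher and 5 lower of 9 tested and a median log2 fold change of -0.54. Their part in the class I difference was not tested.

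Few of these genes changed with DMXAA within the b2 edited lines. In SGK1 KO cells none of 30 genes rose and 3 fell, where 5.89% of all tested genes rose and 5.28% fell, with unadjusted counts of 2 higher and 7 lower and DESeq2 counts of 0 and 5. The 3 were H2-T24 (-1.07 ± 0.19, adjusted p = 0.00064), H2-Q6 (-0.60 ± 0.16, adjusted p = 0.0209) and Tap1 (-0.59 ± 0.12, adjusted p = 0.00177). Tap1 went from 29.3, 28.3 and 26.8 CPM to 18.6, 17.3, 16.9 and 22.1 CPM. Without the steep-length libraries, E, F and P in these groups, none of the 3 was called, at -0.57 for H2-T24, -0.50 for H2-Q6 and -0.60 for Tap1. In double KO cells 1 gene rose, Tapbp (0.38 ± 0.08, adjusted p = 0.00669), and 1 fell, Tap1 (-0.51 ± 0.12, adjusted p = 0.0143), where 4.31% of all tested genes rose and 2.45% fell. Tap1 went from 24.07, 23.97 and 24.12 CPM to 16.8, 15.8 and 18.1 CPM, without overlap, but its call ended without double KO library T (-0.48), U (-0.44), G (-0.49) or I (-0.49), and 1 gene in all was called without U, G or I.

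Tested as a difference in response from control cells, no gene of 30 was called in either b2 line. For SGK1 KO cells 0.277% of all tested genes were called higher and 0.174% lower, unadjusted edgeR counts of the members were 0 higher and 7 lower, and DESeq2 called 2 lower. For double KO cells the shares were 0.517% and 0.265%, the unadjusted counts 0 and 5, and DESeq2 called 1 lower. Tap1 differed by -0.71 ± 0.16 (adjusted p = 0.0627) in SGK1 KO cells and -0.63 ± 0.17 (adjusted p = 0.108) in double KO cells. The value called in SGK3 KO cells of b1 was -0.70.

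Set side by side without shared libraries, the b1 SGK3 KO and b2 SGK1 KO comparisons after DMXAA called 25 and 20 genes lower, 20 of them in both, which is 80% of the first and 100% of the second. Cd74, Erap1, H2-DMa, H2-M3 and Nlrc5 were called only in the first, and the difference between the batches was not tested for them. The b1 and b2 double KO comparisons called 25 and 21 lower, 20 in both, which is 80% and 95.2%. Cd74, H2-DMa, H2-M3, Nlrc5 and Psme2 were called only in b1, and Tapbpl only in b2. The overlap of calls over all tested genes was not counted, so neither overlap can be called particular to these genes.

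Of the class II genes, only the invariant chain was at a high level. Cd74 stood at 93.7 to 247 CPM over all 46 libraries and H2-DMa, a chain of the peptide exchanger, at 0 to 8.30 CPM. The classical chains were at the floor. H2-Ab1 reached at most 0.441 CPM (a count of 33) and had counts in 30 libraries, H2-Aa at most 0.0944 CPM (a count of 7) in 2 libraries, and H2-Eb1 at most 0.101 CPM (a count of 8) in 3 libraries, while H2-Eb2 had none. Ciita, the class II switch, reached at most 0.403 CPM (a count of 38) and had counts in 13 libraries. H2-DMb1 reached 0.514, H2-DMb2 1.13, H2-Oa 0.363 and H2-Ob 0.275 CPM. The summed classical chains lay between 0 and 0.806 TPM, and no fold is given for them. The mean sum was 0.285 TPM at rest and 0.279 after DMXAA in b1 control cells, and 0.326 and 0.19 in SGK3 KO cells. In b2 it was 0.359 and 0.195 in control cells, 0 and 0.067 in SGK1 KO cells, and 0 and 0.116 in double KO cells. These sums were not tested, and Ciita did not pass the filter on low counts in either batch.

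**Figure D4:**
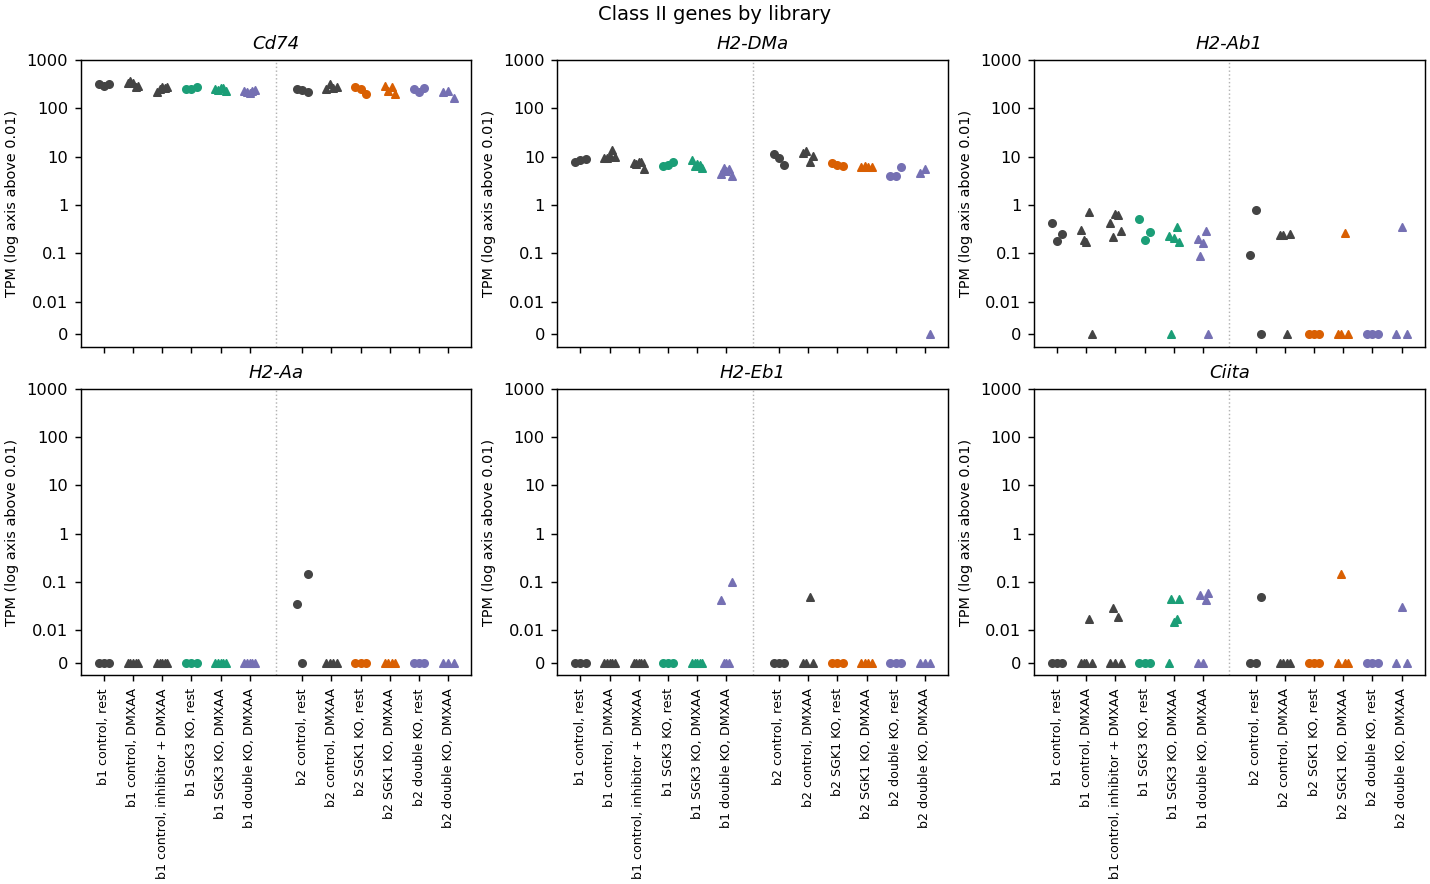
TPM of Cd74, H2-DMa, H2-Ab1, H2-Aa, H2-Eb1 and Ciita in every library on a log axis that starts at 0.01, with values of 0 drawn at the bottom. Cd74 averaged 313 TPM in resting control cells of b1, and the summed classical chains were at most 0.806 TPM in any library.

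Cd74 did not pass with DMXAA in b1 control cells (0.11), with 217, 192 and 211 CPM at rest and 239, 247, 228, 192 and 212 CPM after. After DMXAA it was lower in SGK3 KO cells, at 174, 178, 201, 187 and 159 CPM (-0.32 ± 0.06, adjusted p = 0.000249), in double KO cells, at 165, 158, 148, 153 and 164 CPM (-0.50 ± 0.06, adjusted p = 1.27e-07), and with the inhibitor, at 157, 185, 196, 188 and 189 CPM (-0.29 ± 0.06, adjusted p = 0.00101). The double KO libraries lay below all control libraries, and the SGK3 KO and inhibitor libraries overlapped the lower control values. At rest its call in SGK3 KO cells (-0.25 ± 0.08, adjusted p = 0.0433) ended without control library 1 (-0.21) or 3 (-0.23) or SGK3 KO library 1 (-0.23), 2 (-0.25) or 3 (-0.26), and with the replicate number as a block (-0.25). H2-DMa was called lower in the same b1 comparisons after DMXAA, the inhibitor among them. It stood at 6.21, 5.75, 6.59, 7.95 and 6.37 CPM in control cells after DMXAA, at 4.92, 4.45, 4.97, 4.58 and 3.13 in SGK3 KO cells (-0.58 ± 0.13, adjusted p = 0.00155) and at 2.60, 3.67, 3.07, 3.18 and 2.42 in double KO cells (-1.14 ± 0.14, adjusted p = 5.93e-08). With both batches fitted together the calls after DMXAA of Cd74 in SGK3 KO cells (-0.33) and with the inhibitor (-0.29) ended. Those of H2-DMa in SGK3 KO cells (-0.59) and with the inhibitor (-0.52) ended too. The calls of both genes in double KO cells held (-0.51 and -1.15). In b2 neither passed in SGK1 KO cells after DMXAA (Cd74 -0.22, H2-DMa 6.77 CPM in control cells and 3.38 in SGK1 KO cells). Neither passed in double KO cells (Cd74 -0.53 ± 0.19, adjusted p = 0.0665). The lack of a call does not show that H2-DMa was unchanged in b2. The 5 class II genes tested there all had negative folds after DMXAA, with medians of -1 in SGK1 KO and -1.75 in double KO cells. Among them H2-Ab1, H2-DMb1 and H2-DMb2 lay near the floor.

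Genes that work beside these members were taken from lists. Of 16 subunits of the constitutive proteasome and its other activators 0 were higher and 1 lower in SGK3 KO cells of b1 after DMXAA. The median was 0.004, and 13.3% of all tested genes were higher and 9.59% lower. Psmb5, Psmb6 and Psmb7, the subunits that Psmb8, Psmb9 and Psmb10 replace, differed by -0.12, 0.01 and -0.01. In b1 double KO cells none of the 16 was called, with a median of -0.01. In b2 the same list had a median of -0.31 in SGK1 KO cells after DMXAA with 1 lower, where 4.07% of all tested genes were lower. At rest the median in SGK1 KO cells was -0.56 with 5 lower, where 3.15% of all tested genes were lower. In double KO cells of b2 the median was -0.11 at rest and -0.28 after DMXAA, and none was called. The length slopes differ between the b2 groups, and their part in these medians was not tested. Of 12 tested genes of peptide trimming and loading 6 were lower in SGK3 KO cells after DMXAA in b1, where 9.59% of all tested genes were lower, with a median of -0.15. In double KO cells of b2 after DMXAA 5 were lower, where 6.41% of all were, with a median of -0.26. In SGK1 KO cells of b2 3 were lower after DMXAA, where 4.07% of all tested genes were, with a median of -0.02. At rest 1 was lower in SGK1 KO cells, where 3.15% of all tested genes were, with a median of 0.14. None was higher in any of these. Pdia3, the oxidoreductase of the loading complex, differed by -0.27 ± 0.05 in SGK3 KO cells of b1 and -0.96 ± 0.07 in double KO cells of b2, and the chaperone Calr by -0.23 and -0.84 ± 0.10.

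Of 16 factors known to act at MHC promoters 9 rose and 3 fell with DMXAA in b1 control cells, where 17.9% of all tested genes rose and 17.4% fell, so the share that fell was near that of the table. Irf1, at 124 CPM in control cells after DMXAA, stood at 22.5 CPM in SGK3 KO cells (-2.47 ± 0.07), 17.3 in double KO cells and 23.5 with the inhibitor. Irf9, a DNA-binding factor of the type I interferon response, was lower after DMXAA by a log2 fold change of -1.06 in SGK3 KO cells of b1, -1.68 in SGK1 KO cells of b2 and -1.72 in double KO cells of b2. Of all 16 factors 0 were higher and 6 lower in those SGK3 KO cells, with a median of -0.04 (all tested genes 13.3% and 9.59%). In the SGK1 KO cells 3 were higher and 4 lower, with a median of -0.10 (4.66% and 4.07%). In the b2 double KO cells 1 was higher and 5 lower, with a median of -0.14 (6.43% and 6.41%). Rfx5, which binds the X box of both classes, fell with DMXAA in b1 control cells (-0.88 ± 0.09). Of 10 genes of class II processing 7 were higher and 1 lower in SGK3 KO cells after DMXAA in b1. Of all tested genes 13.3% were higher and 9.59% lower there, so the share that was lower was near that of the table. Among the 7 higher ones were the cathepsins Ctsb (0.30), Ctsd (0.24) and Ctss (0.29), which cut antigen and the invariant chain. The lower one was Ctsl (-0.53 ± 0.05), which was also lower in b2, by -1.20 in SGK1 KO and -1.50 in double KO cells. At rest in b2 SGK1 KO cells 0 of the 10 were higher and 3 lower, median -0.32 (all tested genes 3.28% and 3.15%). After DMXAA 2 were higher and 1 lower there, median -0.08 (4.66% and 4.07%). In b2 double KO cells the counts were 0 and 1 at rest (1.16% and 1.87%) and 4 and 1 after DMXAA (6.43% and 6.41%). Of 7 tested class I-like genes outside the H2 names 2 were higher and 3 lower in SGK3 KO cells of b1 after DMXAA. The shares of all tested genes were again 13.3% and 9.59%. Among the class I-like genes were the neonatal Fc receptor gene Fcgrt (0.63 ± 0.19) and the iron regulator Hfe (-0.53 ± 0.09).

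The 5 non-member genes whose levels followed the mean of B2m, Tap1 and Psmb8 most closely over the 12 group means of b1 and b2, each centred within its batch, were Bst2, Parp12, Pgam1, Slc25a22 and H2-Q5. Their Spearman correlations were 0.993, 0.986, 0.986, 0.986 and 0.979 over those 12 points. Points of 1 batch share its libraries' preparation and, in b2, the length trend. Bst2 encodes tetherin, which holds budding virus at the cell surface, and H2-Q5 is an H2 gene that the table lists as a polymorphic pseudogene. Among the members the correlation was 0.678 for Tapbp and 0.587 for Nlrc5, and -0.65 for H2-Ke6.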

How the data were processed

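The authors deposited gene tables of expected counts and of TPM made with StringTie 2.2.0 from STAR 2.7.9a alignments to GRCm39, per the submitters' processing notes. The column labels name GENCODE M27. The settings for reads that map to several genes are not given in the sources used here. The deposited expected counts were rounded to whole numbers, scaled by TMM and tested with the robust quasi-likelihood test of edgeR 4.0.16 (R 4.3.3) within each batch, with 1 coefficient per group, after filterByExpr, and p-values were adjusted by Benjamini-Hochberg over all tested genes at a threshold of 0.05. The authors' TPM values were used for levels between genes and, with a pseudocount of 0.1, in limma 3.58.1. DESeq2 1.42.0 was an alternative. The scripts were tested on simulated data. The named genes were 20 core members, of which the 17 that passed the filter were tested, and, in each comparison, up to 5 called, non-overlapping members with the largest change. The genes and lists were chosen with earlier results of these data known. A library with conflicting treatment labels entered no group. Other alternatives are in the closing section.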

Additional observations from a re-analysis of the deposited data

Results flagged for a closer look

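Of 144 groups of 4 to 10 libraries examined over 24 named genes, 15 held a library set apart from the others of its group by Dixon's criterion, and chance alone gives some. Inhibitor library 1 of b1 was low in B2m (714 CPM, others 824 to 864), Tap1 (21.3, others 30.1 to 32.5) and Tap2 (21.2, others 27.5 to 30.0) and high in H2-Ke6 (4.29, others 2.56 to 3.04). Its length slope was -0.105, the lowest in b1.

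SGK3 KO DMXAA library 5 of b1 was low in H2-D1 (439 CPM, others 476 to 485) and H2-DMa (3.13, others 4.45 to 4.97), library 4 of that group was low in Psmb8 (64.2, others 68.4 to 70.0) and library 2 was high in H2-Q4 (82.5, others 76.3 to 77.5). Control DMXAA library 5 of b1 was high in H2-K1 (373 CPM, others 347 to 349) and library 2 was low in Psme2 (120, others 140 to 147). Double KO library 5 of b1 was low in Erap1 (84.1 CPM, others 93.5 to 96.4).

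In b2, control DMXAA library M was low in Psmb10 (39.7 CPM, others 55.1 to 57.6) and listed at 0 in H2-Ab1 (others 0.152 to 0.162), and library L was high in Tapbpl (13.1, others 7.97 to 8.82). SGK1 KO DMXAA library Q had 0.116 CPM of H2-Ab1, with 0 in the others.

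The response of Tap1 to DMXAA differed between SGK3 KO and control cells of b1 by -0.70 on the log2 scale, by the interaction test.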

How the results depend on the processing

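Counts of called members within 1.5 times the reported value are not repeated here. With both batches fitted together the counts were 8 for the inhibitor, 6 for DMXAA in b1 SGK3 KO cells, 14 for resting SGK3 KO, 6 and 6 for DMXAA in b2 SGK1 KO and double KO cells, 18 for resting b2 double KO, and 4 and 2 for the b2 response differences of SGK1 KO and double KO. limma on log2 TPM gave 7 for DMXAA in b1 SGK3 KO cells and 7 in b2 SGK1 KO cells. DESeq2 gave 5 for DMXAA in b2 SGK1 KO cells and 2 and 1 for the b2 response differences. Removing the length trend gave, in b2, 2 for DMXAA in control cells, 9 in SGK1 KO and 6 in double KO cells, 17 for resting double KO, and 5 and 1 for the response differences. It also reversed B2m with DMXAA in SGK1 KO cells (-0.313, called) and Erap1 in resting SGK1 KO cells (-0.253, called), which the reported fit had at the opposite sign and not called. Without the steep-length libraries the b2 counts were 0 for DMXAA in SGK1 KO cells, 4 for resting SGK1 KO and 16 for resting double KO. With only the groups compared they were 0 for DMXAA in double KO cells and 8 for resting SGK1 KO. The cause was not tested.

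Leaving out each library in turn gave, in b1, 10 to 17 called members for DMXAA in control cells, 8 to 14 in SGK3 KO cells, 21 to 22 for resting SGK3 KO, 25 to 25 for SGK3 KO after DMXAA, 25 to 26 for double KO, 14 to 17 for the inhibitor and 1 to 1 for the response difference. In b2 it gave 0 to 1 for DMXAA in control cells, 3 to 4 in SGK1 KO and 1 to 3 in double KO cells, 5 to 20 for resting and 19 to 20 for treated SGK1 KO, 4 to 5 for resting and 19 to 22 for treated double KO, and 0 to 2 and 0 to 0 for the response differences of SGK1 KO and double KO.

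Same-numbered libraries of b1 correlated at -0.513 to 0.308 in their deviations from the group means, so the numbers do not pair them. With the replicate number as a block the counts were 14 for DMXAA in control and 12 in SGK3 KO cells, 22 for resting and 25 for treated SGK3 KO, 26 for double KO, 16 for the inhibitor and 1 for the response difference. No paired analysis was possible in b2 because its libraries carry letters and no numbers.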

Other observations

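Batch b3 held 4 libraries outside the comparisons, 1 of SGK1 KO and 2 of double KO cells after DMXAA and library J, whose title and treatment field disagree. All 4 titles are marked as reruns and do not say what was run again, so these values are not an independent repeat. B2m stood at 548 CPM in the SGK1 KO library, at 450 and 488 in the double KO libraries and at 737 in J. H2-T24 stood at 20.2, 9.40 and 8.19, and 89.0 CPM in the same order, and H2-T23 at 48.1, 28.3 and 36.8, and 97.3 CPM. Tap1 stood at 26.3, 18.1 and 22.9, and 48.0 CPM. The summed heavy chains were 1300 TPM in the SGK1 KO library and averaged 1096 TPM in the double KO libraries.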
